A study of Mus musculus with 14 samples.

Results

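Chromatin accessibility at Egfr, the gene of the epidermal growth factor receptor, and at 8 genes of its receptor family and its feedback circuit was examined in mouse liver lacking matrin-3. The 9 genes were Egfr, Erbb2, Erbb3, Errfi1, Phlda1, Dusp6, Spry2, Spry4 and Spred1, of 21900 protein-coding genes. An accessible interval belonged to a gene if its midpoint lay inside the RefSeq gene, or otherwise if that gene was the nearest protein-coding gene within 50 kb. By this rule the 9 genes held 254 of 88203 intervals measured on chow and 248 of 105801 measured on a high-fat diet, and all intervals had the same width. The genes were selected on the knockout against floxed contrasts of these same libraries, in both diets. Those contrasts are therefore given below as a description. Counts of intervals past a threshold are set beside the share of all intervals past it, and they are no test of these genes, whose choice used the same values.

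The study profiled open chromatin by ATAC-seq, in which a transposase cuts and tags accessible DNA. Nuclei came from frozen liver, 50 mg per mouse, and all mice were female. Floxed animals carried loxP-flanked Matr3, the gene of the nuclear RNA- and DNA-binding protein matrin-3, and served as controls for littermates in which an Albumin-Cre transgene deleted it. The Albumin promoter acts in hepatocytes, so other liver cells of the knockouts are not expected to lose Matr3. Diets began at 7 weeks of age and lasted 16 weeks, giving 3 floxed and 3 knockout chow livers, and 4 floxed and 4 knockout livers after a diet with 60 kcal% fat. The text on the high-fat mice states that they fasted for 12 h before they were killed, whereas for chow mice no feeding state was found in the text used.

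Epidermal growth factor receptor is a cell-surface tyrosine kinase that, on binding its ligands, activates the Ras-ERK and PI3K-AKT routes and is abundant on hepatocytes, where it takes part in regeneration. ERBB2, which binds no ligand of its own, and ERBB3, whose kinase is weak, pair with it or with each other. ERRFI1, also called MIG6, binds the receptor's kinase and blocks it. DUSP6 removes phosphate from ERK, and SPRY2, SPRY4 and SPRED1 restrain Ras-ERK signalling. PHLDA1 belongs to the pleckstrin homology-like domain family and is induced by growth signals. Several of these inhibitors are themselves transcribed in response to ERK, which makes the circuit a negative feedback loop.

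The promoters of Egfr and Errfi1 are printed because in these genes the differences spanned the most intervals. Sequences come from the RefSeq promoter table, whose build is GRCm38.p6 (mm10), as 250 bases before to 50 bases after the annotated start on the plus strand. The Egfr window lies at chr11:16751953-16752252. The Errfi1 window lies at chr4:150854820-150855119 and belongs to the downstream one of 2 annotated starts.
Egfr: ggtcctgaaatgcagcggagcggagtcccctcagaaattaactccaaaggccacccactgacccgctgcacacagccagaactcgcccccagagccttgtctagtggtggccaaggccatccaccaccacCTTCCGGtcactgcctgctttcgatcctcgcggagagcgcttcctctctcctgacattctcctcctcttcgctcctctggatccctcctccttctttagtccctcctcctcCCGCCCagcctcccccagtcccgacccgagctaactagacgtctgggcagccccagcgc
Errfi1: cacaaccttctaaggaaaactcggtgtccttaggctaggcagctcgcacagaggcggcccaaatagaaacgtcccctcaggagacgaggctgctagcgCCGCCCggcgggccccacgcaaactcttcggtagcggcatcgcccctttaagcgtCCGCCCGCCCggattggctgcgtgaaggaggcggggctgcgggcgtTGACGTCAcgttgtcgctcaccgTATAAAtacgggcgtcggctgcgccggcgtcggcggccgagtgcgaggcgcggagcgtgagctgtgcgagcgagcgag
Capitals mark every match to 8 motifs searched on both strands. In Egfr these were an ETS core (CCGGAAG, read here as its reverse complement CTTCCGG), 120 bases before the start, and a GC box (GGGCGG, here CCGCCC), 9 bases before it. In Errfi1 they were 3 GC boxes, a cAMP response element (CRE, TGACGTCA) 51 bases before the start and a TATA box (TATAAA) 28 bases before it, with 2 of the GC boxes overlapping. Of 32851 promoters of the same length, 35.7% held a GC box, 8.86% the ETS core, 1.79% the CRE and 13.6% the TATA box. AP-1 (TGANTCA, in 7.81% of promoters), NBRE (AAAGGTCA, 1.51%), forkhead (TGTTTNC, 20.5%) and E-box (CACGTG, 7.15%) letters were not in either window. GC content was 62.3% for Egfr and 66.7% for Errfi1, against a median of 52.7% over all promoters. The table had entries for 6 of the 9 genes.

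Reads within intervals numbered 15531451 to 34981046 per chow library and 7586621 to 10396084 per high-fat library. Chow libraries numbered 2 in both genotypes were the shallowest and stood apart on the second principal component. Chow floxed 2 also lay between the genotypes on the first component, and high-fat knockout 1 and floxed 3 lay closest to the other genotype on it. Results that rest on these libraries are given with and without them. Chow columns name a genotype and a number that the labels do not tie to a single animal. Matr3 intervals summed to 83.2 to 91.4 CPM (reads scaled to a fixed library total) for chow livers and 69.9 to 96.7 CPM for high-fat livers of both genotypes, and they do not check the labels, since no source used states which exons were removed. The 15 listed hepatocyte genes all held intervals, and their summed level, 4362 to 9631 CPM over the 14 livers, came from 444 chow and 476 high-fat intervals, or 9.16 to 21.7 CPM per interval. The Kupffer cell and macrophage list summed to 72.0 to 181 CPM over 13 chow and 28 high-fat intervals, or 4.61 to 8.98 CPM per interval. The lymphocyte and NK cell list, over 17 chow and 20 high-fat intervals, held 12.3 to 18.4 CPM per interval, within the hepatocyte range. Endothelial, stellate cell, cholangiocyte and neutrophil lists held 4.37 to 9.14 CPM per interval. Tissue is bulk liver, so fewer cells of a type and less open chromatin per cell cannot be told apart.

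Egfr carried by far the most intervals of the 9 genes, and their level moved in opposite directions with the knockout in the 2 diets. The level of a locus is the sum of CPM over its intervals, each library being scaled to its reads within intervals. On chow, the Egfr locus held 1704, 846 and 1519 CPM in floxed livers 1 to 3 and 463, 626 and 771 CPM in knockout livers 1 to 3. Every knockout liver was below every floxed liver, with floxed 2 the lowest of its group. In high-fat livers, it held 631, 562, 634 and 576 CPM in floxed livers 1 to 4 and 915, 1382, 1032 and 1150.3 CPM in knockout livers 1 to 4. Here every knockout liver was above every floxed liver, and the 4 floxed values were close together. The log2 fold change of knockout over floxed was -1.16 (SE 0.26) on chow, from 1356 ± 452 to 620 ± 154 CPM (SD, n = 3). For the high-fat livers it was 0.90 (SE 0.12), from 601 ± 37.1 to 1120 ± 199 CPM (SD, n = 4).

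**Figure D1:**
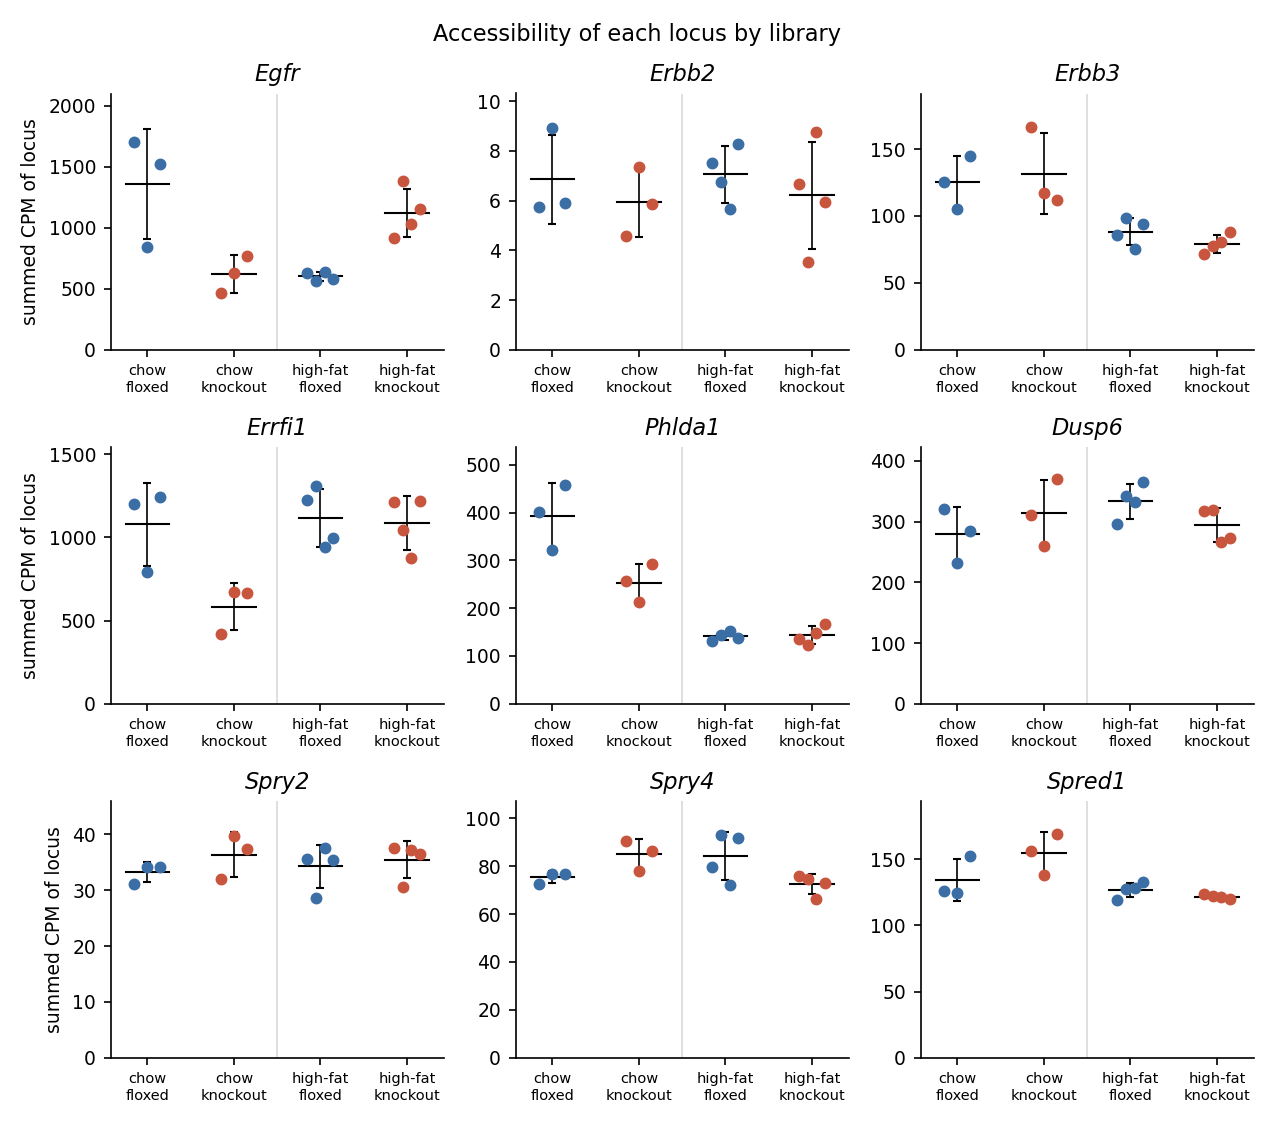
Summed CPM of the intervals of each gene (vertical axis, starting at 0) in every library, by diet and genotype (horizontal axis). Points are single livers, bars the group mean and whiskers 1 SD. At Egfr, knockout livers sit at 463 to 771 CPM against 846 to 1704 CPM on chow, and at 915 to 1382 CPM against 562 to 634 CPM on the high-fat diet.

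The direction at Egfr did not hang on the libraries that stood apart. Without both chow libraries numbered 2, the chow log2 fold change was -1.43, and over the libraries left out in turn it ranged from -1.41 to -0.94. Without high-fat knockout 1 and floxed 3, the high-fat value was 1.01, and over the libraries left out in turn it ranged from 0.76 to 0.99. Hepatocyte markers were lower in knockouts in both diets, with a median locus log2 fold change of -0.29 on chow (13 of 15 lower, none called) and -0.28 on the high-fat diet (12 of 15 lower, Ttr and Apoa2 called). Their summed level spanned 7054 to 9631 CPM in floxed and 6616 to 7552 CPM in knockout chow livers, and 4869 to 8020 CPM and 4362 to 6272 CPM in high-fat livers. Kupffer cell and macrophage markers had a median of -0.19 on chow (1 of 7 measured genes higher) and 0.23 on the high-fat diet (8 of 9 higher, none called), with Timd4 and Mpeg1 holding no interval in either table. Medians of the other lists on chow and the high-fat diet were -0.17 and -0.03 for sinusoidal endothelium, -0.11 and 0.11 for stellate cells and fibroblasts, -0.04 and 0.09 for cholangiocytes, -0.15 and -0.04 for lymphocytes and NK cells, and -0.43 and 0.15 for neutrophils, with no locus called. The part of these markers in the Egfr result was not tested.

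Interval by interval, the Egfr change covered nearly all measured intervals of the locus. On chow, 143 of 144 intervals were lower in the knockout, with a median log2 fold change of -1.26 and a range from -3.03 to 0.05, against a median of -0.003 over all chow intervals. Interval names carry a genotype, and 142 of the 144 carried that of the floxed mice, so this direction count is no separate evidence. None had an edgeR Benjamini-Hochberg adjusted p under 0.05 (hereafter, called), against 0.0227% of all chow intervals in either direction and 0.0215% in the lower direction. At an unadjusted p under 0.05, 98 were lower, against 3.77% of all chow intervals, and in 39 every knockout liver was below every floxed liver, against 6.04% of all. The count passing the adjusted test depended on single libraries and on the tool. It was 79 without chow floxed 2, when 0.685% of all intervals were called, and 60 without both libraries numbered 2 (0.378%). When any other chow library was left out it was 0 (0% to 0.0488%). With the same-numbered chow livers taken as pairs it was 2 (0.143%), with DESeq2 47 (0.617%) and with limma voom 44 (0.768%). At the level of summed loci, 0 of 15930 genes (0.0%) passed on chow.

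With the high-fat diet, 134 of 136 Egfr intervals were higher in the knockout, with a median of 1.11 and a range from -0.15 to 2.02. As 133 of the 136 carried the knockout name, this direction count is no separate evidence either. By edgeR 73 were called higher, against 0.448% of all high-fat intervals called higher and 0.751% called in either direction. In 77 every knockout liver was above every floxed liver, against 2.8% of all intervals. Among summed loci, 0.344% of 16277 genes were called, and Egfr was the only one of the 9. The number of called Egfr intervals was 32 without knockout 2 (0.597% of all intervals called) and 29 without knockout 4 (0.287%). It was 39 without floxed 2 (0.413%) and 35 without floxed 4 (0.308%). Limma voom gave 47 (0.62%), and leaving out knockout 1 with floxed 3 gave 96 (1.78%). These shares are printed beside contrasts on which the gene was picked and carry no weight as evidence.

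**Figure D2:**
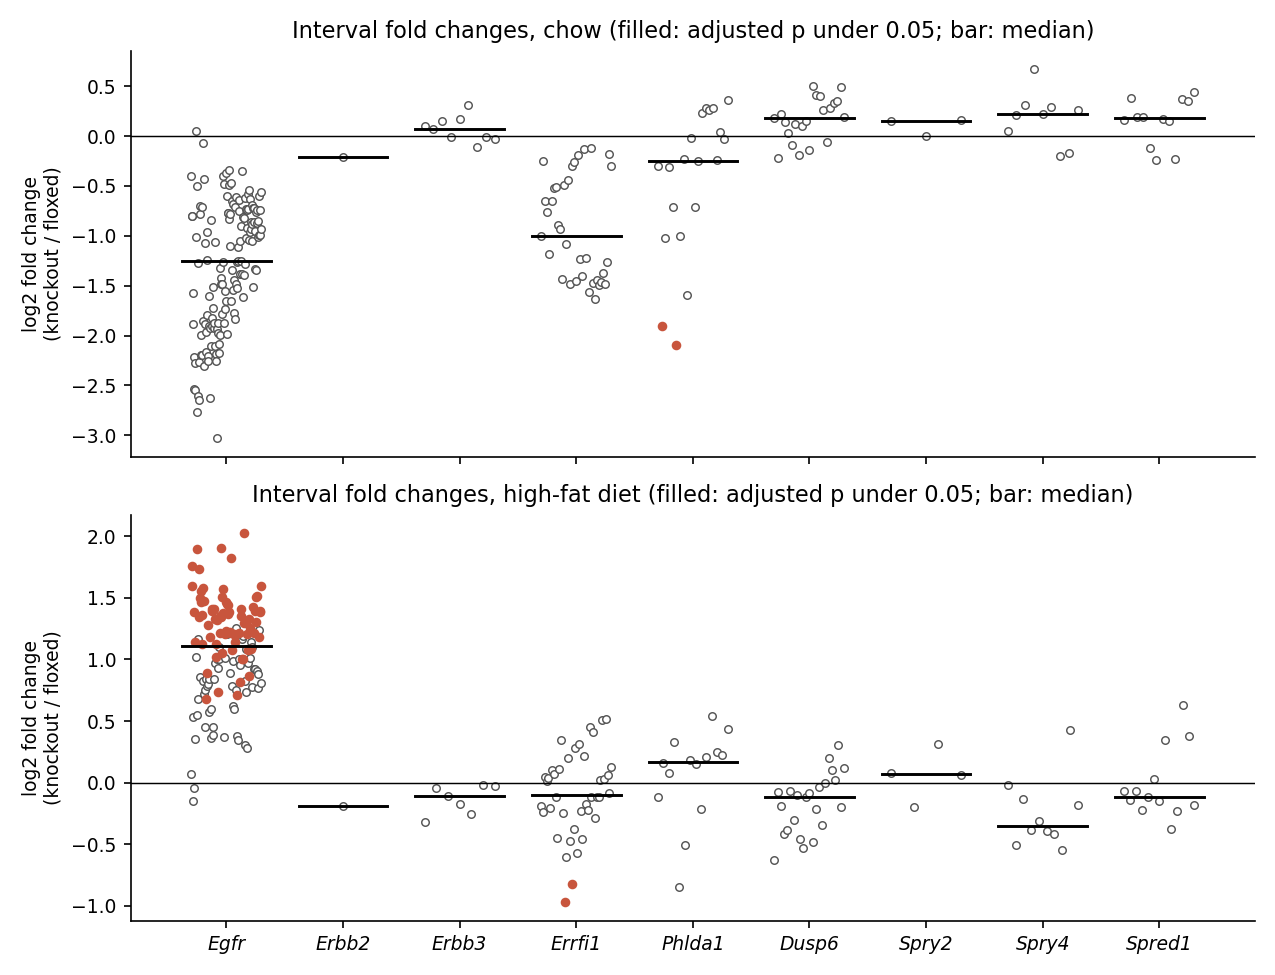
Log2 fold change of knockout over floxed (vertical axis) for each interval, grouped by gene (horizontal axis, with points of a gene spread sideways to be seen), on chow (top) and the high-fat diet (bottom). Filled points have an edgeR adjusted p under 0.05 and black bars are medians. Egfr and Errfi1 lie below 0 on chow, while on the high-fat diet Egfr lies at a median of 1.11 and the other genes at medians from -0.35 (Spry4) to 0.17 (Phlda1).

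The interval over the Egfr start was the most accessible of the locus and moved less than most others. At chromosome 11, 16751982 to 16752482, it held 61.2, 44.3 and 75.3 CPM in chow floxed livers 1 to 3 and 42.7, 40.8 and 53.7 CPM in knockout livers 1 to 3, a log2 fold change of -0.40 (SE 0.18). The groups overlapped, although the knockout was lower in all 3 same-numbered comparisons, where not every number is shown to mark a pair. After the high-fat diet, the interval at 16751984 to 16752484 held 38.2, 43.8, 42.7 and 48.5 CPM in floxed and 47.7, 41.9, 44.8 and 47.1 CPM in knockout livers 1 to 4, a log2 fold change of 0.07 (SE 0.10). All 4 knockout livers lay within the floxed range. These intervals contain the ETS core and the GC box of the printed Egfr window.

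Further Egfr intervals that stood above the dense run of weak ones, named here after their values were seen, moved less than the Egfr median. The highest of them lay 48.5 kb into the gene at 16800406 to 16800906, with 50.2, 23.6 and 58.6 CPM in chow floxed and 24.6, 22.6 and 30.5 CPM in chow knockout livers (log2 fold change -0.77, SE 0.27). In high-fat livers the same site, at 16800508 to 16801008, held 23.6, 20.8, 18.7 and 22.9 CPM in floxed and 32.2, 38.3, 34.0 and 36.6 CPM in knockout livers (0.71, SE 0.12). The chow groups overlapped through floxed 2, and the high-fat groups did not overlap. A site 9.78 kb before the start held 27.8 ± 9.34 CPM in chow floxed and 17.1 ± 3.05 CPM in chow knockout livers (-0.70, SE 0.24; SD, n = 3), and 12.9 ± 1.46 against 20.6 ± 2.44 CPM on the high-fat diet (0.68, SE 0.15; SD, n = 4). A site 51.9 kb into the gene changed by -0.65 (SE 0.31) on chow and by 0.82 (SE 0.15) on the high-fat diet. These 3 sites were lower in chow knockouts and higher in high-fat knockouts, whereas a site 149 kb into the gene had -0.07 (SE 0.22) in the chow and 0.57 (SE 0.18) in the high-fat comparison.

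**Figure D3:**
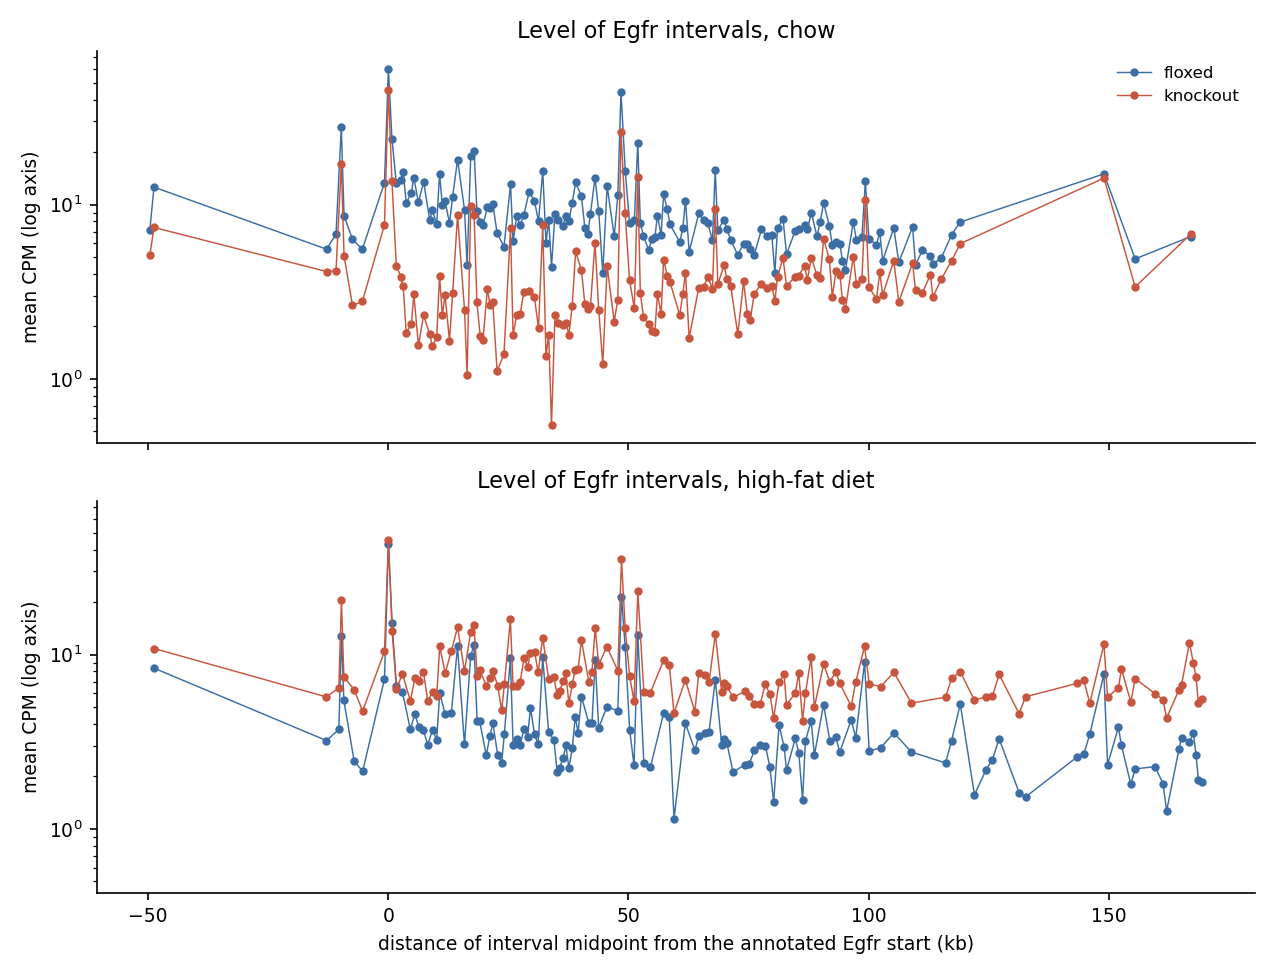
Mean CPM per interval (vertical axis, log scale) against the distance of the interval from the Egfr start in kb (horizontal axis), for floxed (blue) and knockout (red) livers on chow (top) and the high-fat diet (bottom). The start interval is the highest in both diets, and the knockout line runs below the floxed line on chow in 143 of 144 intervals and above it on the high-fat diet in 134 of 136.

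The interval furthest from 0 in each diet was a weak one within the gene. On chow, the interval 34.0 kb from the start, at 16785937 to 16786437, held 5.43, 1.88 and 5.88 CPM in floxed and 0.389, 0.564 and 0.678 CPM in knockout livers 1 to 3, a log2 fold change of -3.03 (SE 0.45). Every knockout liver was under 1 CPM. Among high-fat livers, the interval 59.5 kb from the start, at 16811448 to 16811948, held 1.01, 0.975, 2.14 and 0.461 CPM in floxed and 3.33, 6.95, 3.66 and 4.55 CPM in knockout livers 1 to 4, a log2 fold change of 2.02 (SE 0.39). Knockout 2 was the highest and no knockout liver reached down to the floxed range. Library counts per Egfr interval went as low as 9 in chow and 4 in high-fat libraries, so single intervals are imprecise. Across intervals over 1 kb into the gene, Spearman's rho of the floxed level with the log2 fold change was -0.30 on chow, so that higher floxed levels went with larger decreases, and -0.79 on the high-fat diet, where lower floxed levels went with larger increases. The floxed values enter both measures.

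Size followed position along Egfr, and did so differently in each diet. On chow, the median log2 fold change was -2.19 over the 24 intervals 1 to 20 kb past the start and -1.92 over 24 intervals at 20 to 40 kb. It then shrank to -1.48 at 40 to 60 kb, -1.02 at 60 to 80 kb, -0.74 at 80 to 100 kb and -0.63 over 14 intervals at 100 to 120 kb. Beyond 140 kb only 3 intervals were measured, at -0.50, -0.07 and 0.05. On the high-fat diet, the median was 0.07 within 1 kb of the start, 0.81 over the 18 intervals 1 to 20 kb past it, 1.21 at 20 to 40 kb, 1.08 at 60 to 80 kb and 1.19 at 100 to 120 kb. It was 1.44 at 120 to 140 kb, 1.41 from there to the gene's end and 1.48 over the 8 intervals past the end, of which 7 were called. Among intervals inside the gene and more than 1 kb from its start, Spearman's rho of distance with log2 fold change was 0.86 over 132 chow intervals and 0.34 over 118 high-fat intervals, as a description across intervals of the same livers.

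**Figure D4:**
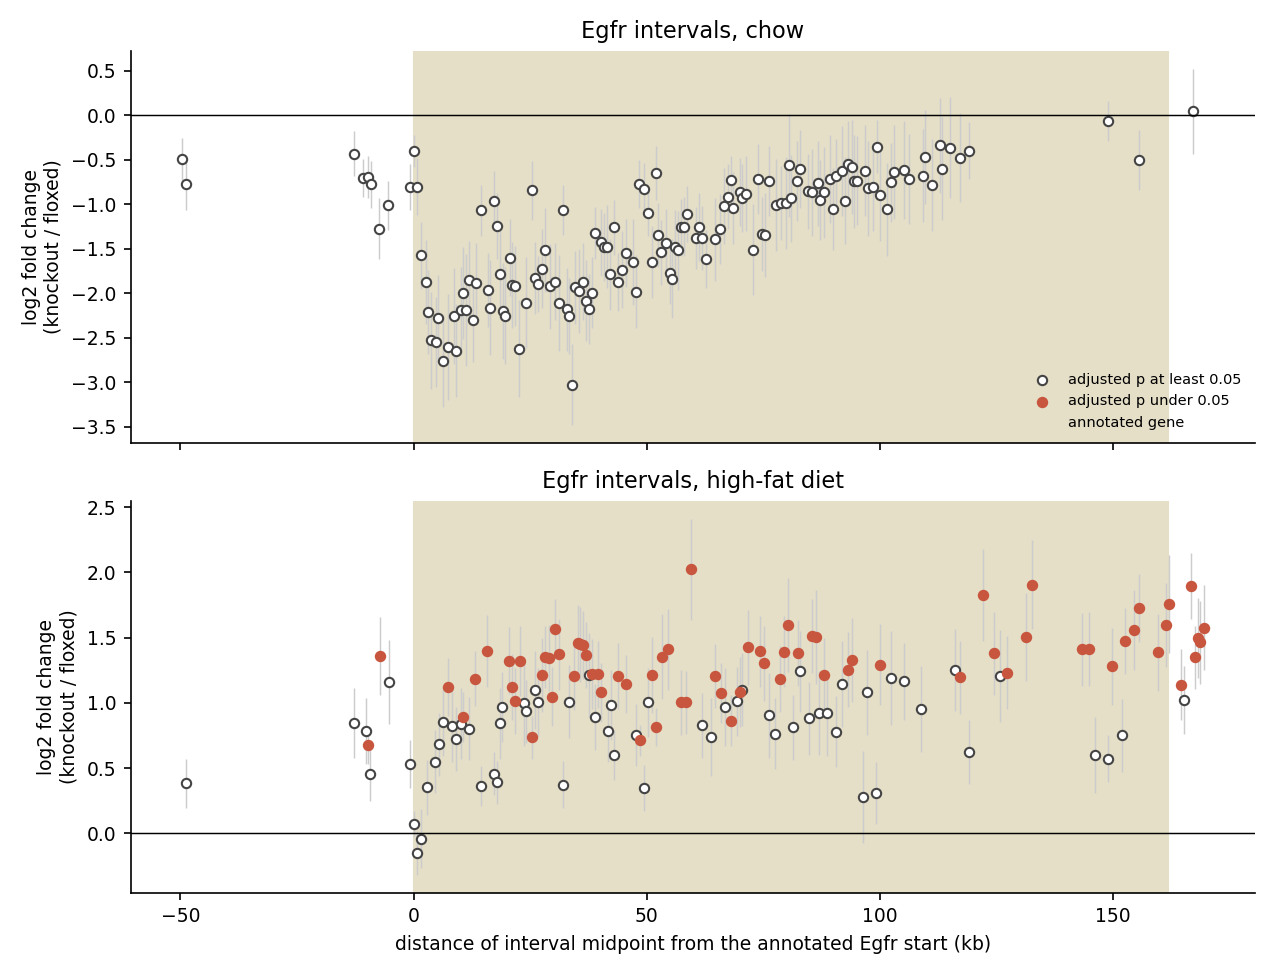
Log2 fold change of knockout over floxed with its SE (vertical axis) against distance from the Egfr start in kb (horizontal axis), on chow (top) and the high-fat diet (bottom), with the annotated gene shaded and filled points at an edgeR adjusted p under 0.05. Chow values are lowest between 1 and 40 kb and approach 0 at the far end, and high-fat values are near 0 at the start and 1.48 at the median past the end.

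Egfr intervals could be matched between the tables in 86 cases at 50% overlap or more, and 84 of them were lower on chow and higher on the high-fat diet. Their summed level was 962 ± 336 CPM in chow floxed and 450.3 ± 93.5 CPM in chow knockout livers (SD, n = 3), and 466 ± 22.7 and 802 ± 131 CPM in high-fat livers (SD, n = 4). The diets sit in separately scaled tables and a fast is stated for 1 of them only, so these levels are side by side and not compared. Subtracting the chow effect from the high-fat effect gave a difference called by edgeR in 48 of the 86, all positive, with a median over the 86 of 2.23. Of all 73945 matched intervals, 0.183% were called. Both contrasts had served to choose the genes. The size of the change on chow said little of its size on the high-fat diet, with Pearson's r of -0.17 across the 86.

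**Figure D5:**
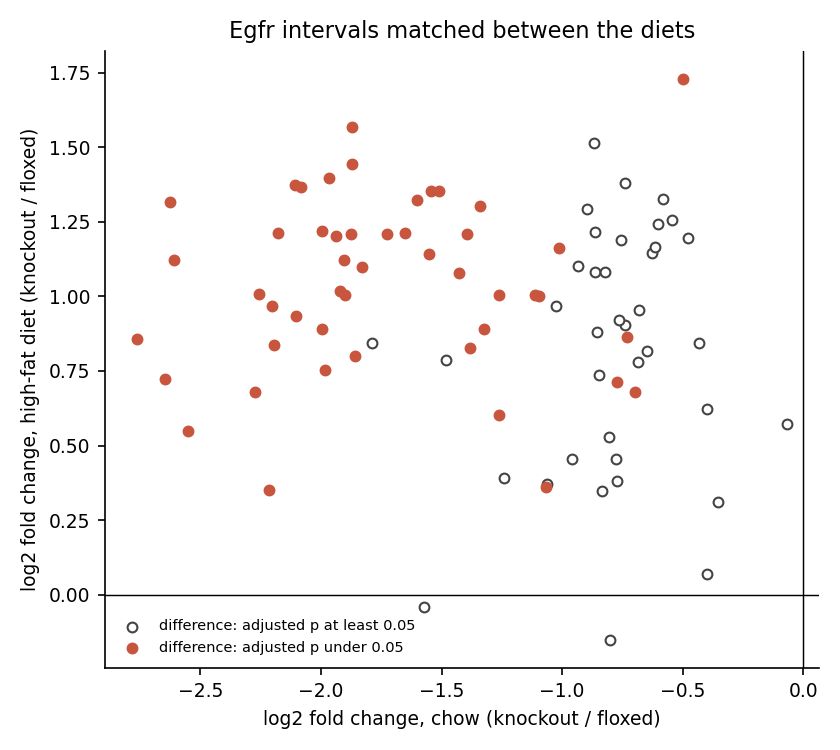
Log2 fold change of knockout over floxed on the high-fat diet (vertical axis) against that on chow (horizontal axis) for 86 Egfr intervals matched between the tables. Filled points differ between the diets at an edgeR adjusted p under 0.05, and 84 points lie at negative chow and positive high-fat values.

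The nearest genes with intervals on either side of Egfr had smaller values. Sec61g, 244 kb before it, had a locus log2 fold change of -0.12 (SE 0.13) on chow and 0.30 (SE 0.08) on the high-fat diet. Its interval medians were -0.40 and 0.36. Vstm2a, 468 kb before Egfr with 1 and 2 intervals, had -0.41 (SE 0.31) and 0.32 (SE 0.20). Grb10, as far as 4715 kb before Egfr, had -0.03 (SE 0.12) and 0.13 (SE 0.08). These genes had the signs seen at Egfr, but the chow values of Sec61g and Grb10 were smaller than their SE. Fbxo48, 37.3 kb after Egfr, had -0.05 (SE 0.09) and -0.03 (SE 0.08). Cobl, 4287 kb before Egfr (0.09 and 0.06), Ppp3r1 (0.19 and 0.04) and Plek (-0.37, SE 0.31, and -0.01) also kept their sign. Pno1 had 0.39 (SE 0.20) on chow and Cnrip1 -0.03 on the high-fat diet. No interval of the 4 nearest genes with intervals on either side was called in either diet.

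The other receptors showed small values. Erbb2 carried 1 interval in each table, over its start. It held 5.75, 8.93 and 5.91 CPM in floxed and 4.58, 7.34 and 5.86 CPM in knockout livers on chow, and 7.53, 6.73, 5.65 and 8.30 against 6.65, 3.53, 8.75 and 5.93 CPM on the high-fat diet. The groups overlapped in both diets. Erbb3, with 9 and 7 intervals, had a locus log2 fold change of 0.06 (SE 0.17) on chow and -0.17 (SE 0.09) on the high-fat diet. Its strongest interval, at one bound of the gene on chromosome 10 (128589457 to 128589957), averaged 22.4 ± 2.01 CPM in the chow floxed group and 23.9 ± 2.39 CPM in the chow knockouts (SD, n = 3). Its 7 high-fat intervals were all lower in the knockout, although the summed groups overlapped. All 7 carried the name of the floxed mice, so this direction count is no separate evidence either.

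Errfi1, the inhibitor that binds the receptor itself, was lower in chow knockouts, as Egfr was, and had a value near 0 on the high-fat diet. The locus held 1203, 791 and 1244 CPM in chow floxed livers 1 to 3 and 421, 669 and 663 CPM in knockout livers 1 to 3, a log2 fold change of -0.91 (SE 0.21). The groups did not overlap, and floxed 2 was again the lowest floxed liver. In high-fat livers it held 1224, 1308, 942 and 998 CPM in floxed and 1214, 1044, 879 and 1217 CPM in knockout livers 1 to 4, a log2 fold change of -0.05 (SE 0.12), and the groups overlapped. All 35 chow intervals were lower in the knockout, with a median of -1.01, and 22 had every knockout liver below every floxed liver, against 6.04% of all chow intervals. At an unadjusted p under 0.05 there were 23, against 3.77% of all. None was called by edgeR with all libraries, where 0.0227% of all were. Without floxed 2 there were 18 calls (0.685% of all intervals), and 16 without both libraries numbered 2 (0.378%). DESeq2 called 18 (0.617%) and limma voom 20 (0.768%), and DESeq2 also called the locus, with its share of all loci called not given here. Without both chow libraries numbered 2 the locus value was -1.21. Interval names in the tables carry a genotype, and all 35 chow intervals of Errfi1 carried that of the floxed mice, whereas 49.9% of the whole chow table carried the knockout's. For Egfr this was 142 of 144 with the floxed name on chow and 133 of 136 with the knockout name on the high-fat diet. Direction counts over the intervals of either gene are therefore no separate evidence.

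Errfi1 differences lay within the gene more than at its ends. The interval over the printed promoter, on chromosome 4 at 150854638 to 150855138, held 61.7, 37.9 and 57.4 CPM in chow floxed and 32.2, 30.4 and 37.2 CPM in chow knockouts (-0.65, SE 0.17). These groups were separate. At 150858943 to 150859443, 4.12 kb past the nearer start, it was 48.3, 26.9 and 32.1 against 8.89, 15.9 and 10.2 CPM (-1.64, SE 0.25), the furthest from 0 of any Errfi1 interval on chow. The median was -0.44 before the start, -1.45 over the 9 intervals within 5 kb past it and over the 7 at 5 to 10 kb, -1.04 over the 6 at 10 to 15 kb, and -0.24 over the 6 beyond 15 kb. The most accessible interval, 2.98 kb past the gene's end at 150871617 to 150872117, held 62.7, 54.6 and 97.4 CPM in floxed and 42.1, 60.7 and 71.8 CPM in knockout livers, and the groups overlapped.

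In high-fat livers, the medians along Errfi1 also increased from the start towards and past the end. The median was -0.45 over the 8 intervals within 5 kb past the start, -0.12 at 5 to 10 kb, 0.03 at 10 to 15 kb and 0.33 over the 10 beyond 15 kb. The 2 called intervals were both lower, 1.399 and 2.14 kb past the start, where 0.751% of all high-fat intervals were called. Neither was called without knockout 3, floxed 2 or floxed 4, and of the pair only the one at 2.14 kb without knockout 1, knockout 4 or floxed 1. The count at Errfi1 was 5 without floxed 3, when 1189 of all 105801 high-fat intervals were called, against 795 with all libraries. It was 7 without knockout 1 and floxed 3 together (1.78% of all intervals called) and 4 with same-numbered livers as pairs (1.34%). The one at 150856960 to 150857460 held 17.1, 21.0, 14.3 and 21.0 CPM in floxed and 9.87, 13.02, 6.53 and 12.1 CPM in knockout livers 1 to 4, with no overlap (-0.82, SE 0.18). The other, at 150856219 to 150856719, held 11.7, 15.9, 5.78 and 11.4 CPM in floxed and 5.79, 7.83, 4.18 and 5.05 CPM in knockout livers (-0.97, SE 0.24). Here floxed 3 lay below knockouts 1 and 2, so the groups overlapped. In the comparison between diets 5 of 31 matched Errfi1 intervals were called, against 0.183% of all matched intervals, with chow values of -1.64 to -1.26 and high-fat values of -0.22 to 0.03.

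Phlda1 carried the only member intervals called on chow, just past one bound of the gene on chromosome 10. The interval at 111509385 to 111509885 held 61.8, 38.2 and 55.8 CPM in floxed and 12.6, 6.90 and 16.4 CPM in knockout livers 1 to 3, a log2 fold change of -2.10 (SE 0.27). The interval at 111508649 to 111509149 held 29.3, 20.5 and 34.2 against 7.92, 5.39 and 8.87 CPM (-1.91, SE 0.23). In both every knockout liver was below every floxed liver. Neither was called without knockout 1, knockout 2, floxed 1 or floxed 3, when the count over all 9 genes was 0. The number of called Phlda1 intervals was 2 without knockout 3 (0.0488% of all intervals called) and 4 without floxed 2 (0.685%). It was 3 without both libraries numbered 2 (0.378%), 5 with DESeq2 (0.617%) and 3 with limma voom (0.768%). With the same-numbered livers as pairs, 4 Phlda1 intervals were called, as were 0.143% of all chow intervals. Without pairs that share was 0.0227%. The interval over the gene's other bound, at 111506235 to 111506735, held 84.7, 80.4 and 109 CPM in floxed and 74.1, 66.2 and 81.9 CPM in knockout livers. The groups overlapped, although the knockout was lower in all 3 same-numbered comparisons, where not every number is shown to mark a pair.

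The Phlda1 locus as a whole held 400.3, 322 and 458 CPM in chow floxed and 256, 212 and 292 CPM in chow knockout livers 1 to 3, a log2 fold change of -0.65 (SE 0.15) with no overlap. It was called by edgeR with the same-numbered livers as pairs, and by DESeq2, fits for which the share of all loci called is not given here. In high-fat livers it held 132, 144, 151 and 137 CPM in floxed and 135, 124, 148 and 168 CPM in knockout livers (0.02, SE 0.08). Those groups overlapped and none of its 14 intervals was called. The site just past the bound was still lower there, at 111509457 to 111509957, with 5.62, 7.80, 6.91 and 6.80 CPM in floxed and 4.08, 2.87, 4.44 and 3.79 CPM in knockout livers (-0.84, SE 0.23), without overlap and not called. In the comparison between diets, 1 of 14 matched Phlda1 intervals was called, against the same 0.183%, inside the gene at 111507320 to 111507820, with a difference of 1.36 (SE 0.29).

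The inhibitors of the Ras-ERK route showed smaller values and no edgeR calls. Dusp6, the ERK phosphatase, held 322, 232 and 285 CPM in chow floxed and 311, 259 and 370.1 CPM in chow knockout livers (0.14, SE 0.15), and 296, 342, 332 and 366 against 317, 319.8, 266 and 274 CPM on the high-fat diet (-0.18, SE 0.09). Both pairs of groups overlapped. Its start interval, on chromosome 10 at 99263011 to 99263511, averaged 37.2 ± 6.83 CPM in the chow floxed group and 42.3 ± 6.58 CPM in the chow knockouts (SD, n = 3). Spry4 held 72.5, 76.6 and 76.9 CPM in chow floxed and 90.5, 77.9 and 86.3 CPM in chow knockout livers (0.16, SE 0.08), groups that did not overlap, while on the high-fat diet its value was -0.22 (SE 0.09) with overlap. Spred1 had 0.18 (SE 0.11) on chow and -0.07 (SE 0.07) on the high-fat diet, and Spry2, with 3 and 4 intervals, 0.11 (SE 0.10) and 0.05 (SE 0.10). On chow these 4 genes had medians of 0.15 to 0.22 over their intervals, against -1.26 at Egfr. On the high-fat diet the medians were -0.12 at Dusp6, 0.07 at Spry2, -0.35 at Spry4 and -0.11 at Spred1, against 1.11 at Egfr.

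Single intervals of these inhibitors spanned log2 fold changes from -0.24 to 0.67 on chow and from -0.63 to 0.63 on the high-fat diet. At Dusp6, the value furthest above 0 on chow was 0.50 (SE 0.29), 6.36 kb from the start, and the furthest below 0 on the high-fat diet was -0.63 (SE 0.26), inside the gene at 99267087 to 99267587, with 8.09, 7.996, 7.41 and 9.33 CPM in floxed and 7.19, 7.28, 1.96 and 4.55 CPM in knockout livers. The groups there did not overlap. At Spry4, an interval on chromosome 18 at 38598652 to 38599152 held 4.39, 4.04 and 6.09 CPM in chow floxed and 10.2, 6.33 and 6.66 CPM in chow knockout livers (0.67, SE 0.25), again without overlap. The high-fat value furthest below 0 at Spry4 was -0.55 (SE 0.23), 10.1 kb outside the gene. At Spred1, the interval 33.4 kb before the start held 13.3, 13.4 and 15.2 CPM in chow floxed and 21.5, 15.2 and 20.1 CPM in chow knockout livers (0.44, SE 0.16). The floxed and knockout livers were only just separate there. The intervals at the start or gene bound of Spred1 (0.16, SE 0.19), Spry2 (0.15, SE 0.17) and Spry4 (0.05, SE 0.18) were close to level between genotypes on chow. On the high-fat diet they had -0.07 (SE 0.13), 0.08 (SE 0.17) and -0.02 (SE 0.15).

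The order of levels among the genes, as mean CPM per interval of equal width, had Errfi1 first by mean in every group, with livers overlapping those of Dusp6 among chow knockouts. In chow floxed livers it ran from Errfi1 at 30.8 ± 7.17 and Phlda1 at 19.7 ± 3.42 through Erbb3, Dusp6, Spred1 and Spry2 to Egfr at 9.42 ± 3.14, Spry4 at 8.38 ± 0.273 and Erbb2 at 6.86 ± 1.80 CPM (SD, n = 3). Only the step from Phlda1 to Erbb3 had no overlap between livers. In chow knockout livers Egfr had the lowest mean, 4.30 ± 1.07 CPM, and overlapped Erbb2. It was lowest in high-fat floxed livers as well, at 4.42 ± 0.273 CPM (SD, n = 4) with no overlap with Erbb2 above it, and seventh in high-fat knockout livers at 8.23 ± 1.47 CPM, where its neighbours Spry2 and Spry4 overlapped it.

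Beyond the 9 genes, 102 other genes of the pathway were read from 6 lists. Of the 98 with a measured locus, none was called at the locus level in either diet, 49 were higher and 49 lower on chow, and 52 were higher and 46 lower on the high-fat diet. Their median locus log2 fold change was -0.0004 for chow and 0.01 for high-fat livers, against -0.01 and -0.001 over all loci. The ligands of the EGF family had medians of 0.01 and 0.09, the adaptors and the Ras-ERK relay of 0.01 and 0.004, the PI3K-AKT branch of -0.04 in both diets, and the ERK-induced early genes of -0.004 and 0.05. The receptor and protease list had 0.04 and -0.01, and the other negative regulators 0.02 and -0.01. At an unadjusted p under 0.05 there were 4 of 98 loci for chow and 9 of 98 for high-fat livers, against 6.55% and 10% of all loci. DESeq2 called 1 on chow (Cish, a cytokine signalling inhibitor, -0.67) and 0 on the high-fat diet. Its share of all loci called is not given here. Of the 896 chow and 1056 high-fat intervals of these genes 1 was called, against 0.0227% and 0.751% of all intervals. It was in Nf1, a Ras inhibitor, named after its value was seen. On the high-fat diet, at chromosome 11, 79548277 to 79548777, it rose from 1.4 ± 0.783 to 4.03 ± 1.01 CPM (1.54, SE 0.38; SD, n = 4).

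Among 6352 loci compared over the 8 high-fat livers, the 5 most like Egfr by Pearson's r of log2 CPM were Slc17a9 (0.99), Tnfrsf1a (0.97), Qsox1 (0.97), Ezr (0.96) and Tox2 (0.95), a likeness that the genotype difference enters. Tox2 had a high-fat log2 fold change of 0.85 (SE 0.12) close to that of Egfr, and 0.01 (SE 0.17) on chow. Qsox1 had 0.19 (SE 0.07) on the high-fat diet and -0.55 (SE 0.21) on chow. Errfi1 was not like Egfr over these livers, at -0.15.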

How the data were processed

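ATAC-seq of 14 mouse livers was read from 2 tables, 1 per diet, of raw read counts per interval that the authors deposited, in mm10 coordinates per the labels. The submitters' processing notes list MACS2 2.2.7.1, HOMER 4.11, Bowtie2 2.4.2, ChIPseeker, DESeq2, bedtools and Trim Galore 0.6.7, with no roles. No source used states duplicate removal, the transposase offset or pooling for peak calling, and calling peaks on the compared libraries can favour intervals open in 1 group. All sample columns were used (0 left out), and positions are 1-based.

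The diets were fitted separately in R 4.3.3 by edgeR 4.0.16 (TMM scaling, filterByExpr, which removed no interval, and a quasi-likelihood fit of genotype), with Benjamini-Hochberg adjustment over the whole table at 0.05, per interval and per locus, where counts were summed over a gene's intervals. "Called" means past that threshold. Differences between diets were fitted on intervals matched 1 to 1 at 50% overlap, with all 14 libraries. DESeq2 1.42.0, limma 3.58.1 voom with quality weights, other scalings and filters, other assignment distances and libraries left out in turn served as alternatives. Sample titles number each female of a diet singly, so each library was read as 1 animal. Chow columns were used as members of their group with no label of their own. Libraries within each group all differed beyond counting noise, at 2.49 or more times the expected chi-square.

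Same-numbered chow libraries were taken as pairs in an alternative fit. Their r was 0.18, 0.53 and 0.19, and the labels do not say what a number marks. Differently numbered chow libraries of opposite genotype gave r of 0.28, 0.18, -0.29, -0.38, -0.30 and -0.37. Only the 0.53 lay above all of these, so the other numbers are not shown to mark pairs. On the high-fat diet same-numbered r was 0.07, 0.13, 0.18 and -0.01, and pairing by number was not shown there. The 9 genes, the 6 pathway lists and the 7 marker lists were chosen with earlier results of these data known. Named per gene are the interval nearest its start, the highest, and those with the largest positive and negative fold change, here given in full for the genes that differed. Loci most like Egfr were ranked by Pearson's r of log2(CPM + 1) over the 8 high-fat libraries, among loci of 5 or more intervals over 500 kb from it. Gene bounds, starts and promoter sequences come from RefSeq for GRCm38.p6.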

Additional observations from a re-analysis of the deposited data

Results flagged for a closer look

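Both diets' contrasts served to choose the genes, so the following counts describe the difference between them and are no independent test. The fitted knockout effect on the high-fat diet minus that on chow was past the adjusted threshold in 48 Egfr, 5 Errfi1 and 1 Phlda1 intervals, against 0.183% of all matched intervals. All 48 Egfr differences were positive, from 1.41 to 3.97 on the log2 scale. Over the libraries left out in turn, the count for all 9 genes, 54, ranged from 38 without chow knockout 1 to 73 without chow floxed 2. In those 2 fits 82 and 370 of all matched intervals were called.

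At Spry2, high-fat knockout 2 lay apart from the other 3 knockout livers, at 30.6 CPM against 36.5 to 37.6 CPM, its gap to the nearest being above Dixon's critical value. High-fat floxed 2 was lower still, at 28.7 CPM against 35.4 to 37.6 CPM in the other floxed livers, without passing that value. Knockout 2 was the 1 such library found among 18 sets of 4 livers, and by the construction of Dixon's 95% value chance flags about 1 in 20. High-fat knockout 2 had the highest Egfr level of all high-fat livers, 1382 CPM.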

How the results depend on the processing

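The number of called intervals over the 9 genes on chow, 2 where 0.0227% of all intervals were called, became 0 with intervals inside genes only. It was 70 with DESeq2 (0.617% of all intervals) and 67 with limma voom (0.768%). The replicate block that pairs same-numbered livers gave 6 (0.143%), and leaving out both libraries numbered 2 gave 79 (0.378%). Over the chow libraries left out in turn it ranged from 0 to 101, the latter without floxed 2 (0.685%). Called loci of the 9 genes on chow, 0, became 2 with DESeq2 (Errfi1 and Phlda1), 1 with the replicate block (Phlda1) and ranged from 0 to 1 over the libraries left out, with Egfr called without floxed 2. Called pathway loci on chow, 0, became 1 (Cish) with DESeq2, with the replicate block and without floxed 2, a range of 0 to 1. On the high-fat diet, 75 called intervals became 49 with limma voom and ranged from 30 to 88 over the libraries left out. In the fits giving 30 and 88, 304 and 1189 of all high-fat intervals were called, against 795 with all libraries. The replicate block there gave 90 (1.34%), and made called pathway loci 3 (Fosb, Ier3 and Nrg4) in place of 0. Egfr was the only called locus of the 9 under all of these high-fat settings. The share of all loci called in the alternative fits is not given here. Locus counts under them are therefore not read as results about these genes. The 54 intervals called between diets, of 135 called among all matched intervals, became 82 of 523 with limma voom. No value past a threshold changed sign. Signs did change for small uncalled values, among them the high-fat loci of Errfi1 and Phlda1 and the Spry2 loci. Intervals with few reads limit single values, the chow labels do not tie numbers to animals, and a fast is stated for 1 diet only.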
